A study of Homo sapiens with 6 samples.

Results

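The genes described here are the zinc finger genes of human chromosome 19 with a numbered ZNF symbol. They were chosen as every protein-coding gene of the deposited table on chromosome 19 whose symbol is ZNF, a number and at most 1 further letter, which gave 246 of 62700 genes. Their transcripts were counted by poly(A) RNA sequencing in SAS cells, a human line established from a tongue carcinoma of squamous type. The 3 knockdown libraries (labelled siIGF2BP1, knockdowns 1 to 3) came from cells given an siRNA against IGF2BP1, whose protein binds mRNAs and protects many of them from decay. The 3 control libraries (siC, controls 1 to 3, genotype WT) came from the same line given a control siRNA. The labels name a single cell line and do not say whether replicates were separate cultures. The p-values therefore set the difference between groups only against the variation among these libraries, and that variation may be technical.

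Zinc finger proteins of this kind bind DNA through tandem fingers, each folded around a zinc ion held by a pair of cysteines and a pair of histidines. Many also carry a KRAB domain at the amino end, which recruits the corepressor TRIM28 (KAP1) and, through it, the histone methyltransferase SETDB1 and heterochromatin proteins to silence transposable elements and other targets. Human chromosome 19 holds the largest family of KRAB zinc finger genes, arranged in clusters that grew by tandem duplication. The members without a KRAB domain are a more mixed group of transcription factors and nuclear proteins.

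The repeat that defines the family can be read in the coding sequence. Fingers are joined by a short conserved linker, and the KRAB box has a conserved core. The degenerate codons of the linker and of this core (the KRAB letters) were searched in frame on the coding strand of the longest GENCODE release 29 coding sequence of each gene. The stretches below show the linker letters in capitals for ZNF91, a KRAB repressor of SVA retrotransposons, for ZNF146, which consists almost entirely of fingers, and for ZNF865, described below as higher after knockdown. They begin at coding base 865 of ZNF91, 283 of ZNF146 and 1117 of ZNF865.

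ZNF91: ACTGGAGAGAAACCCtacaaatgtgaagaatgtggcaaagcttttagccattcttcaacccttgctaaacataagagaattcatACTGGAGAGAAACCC

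ZNF146: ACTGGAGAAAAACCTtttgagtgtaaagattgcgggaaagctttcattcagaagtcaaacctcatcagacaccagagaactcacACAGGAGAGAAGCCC

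ZNF865: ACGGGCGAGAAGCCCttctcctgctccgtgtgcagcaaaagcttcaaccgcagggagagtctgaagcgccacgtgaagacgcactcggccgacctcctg

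In ZNF91 and ZNF146 a second linker follows 84 bases after the first, and in ZNF865 no second linker falls in the stretch. The start of the KRAB box of ZNF91, from coding base 40, is shown with the KRAB letters in capitals.

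ZNF91: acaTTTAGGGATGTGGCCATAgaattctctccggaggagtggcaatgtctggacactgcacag

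At least 1 linker was found in 213 of the 246 genes (86.6%), against 22 of 1217 other chromosome 19 protein-coding genes with a coding sequence (1.81%). The genes had a median of 6 linkers and at most 25, and 819 of 1274 gaps between neighbouring linkers (64.3%) were exactly 84 bases. The KRAB letters were found in 169 of the 246 (68.7%) and in 349 of all 19752 protein-coding genes (1.77%), a count that includes these 169. The motif is a proxy, since ZNF382, ZNF473 and ZNF649, known to encode KRAB proteins, lack these letters; the genes are therefore divided below into 169 with the KRAB letters and 77 without them.

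Depth was between 17918496 and 26675064 reads per library, and 3 reads corresponded to between 0.115 and 0.165 CPM (a gene's reads relative to the library total after scaling by TMM factors); such floors cover counting error only. IGF2BP1 itself held 29, 25 and 21 reads in knockdowns 1 to 3 and 185, 223 and 292 in controls 1 to 3 (log2 fold change -3.07, SE 0.30, edgeR adjusted p = 4.56e-06). Of 7 squamous epithelial markers all were detected, and their summed level was 4204 to 4540 CPM in knockdown libraries and 7847 to 8626 CPM in control libraries. Most of that gap came from KRT5, at 496, 439 and 496 CPM in knockdowns 1 to 3 and 3853, 3446 and 3452 CPM in controls 1 to 3. KRT14, KRT6A and CDH1 were also lower in each knockdown library, whereas KRT17, TP63 and EPCAM overlapped between groups. Of 7 fibroblast markers 3 were at 0 in all libraries (COL3A1, DCN and LUM; sums 5.72 to 9.24 CPM in knockdown and 6.37 to 8.50 CPM in control). Of 4 endothelial markers KDR was at 0 (sums 6.17 to 13.5 CPM in knockdown and 6.29 to 7.41 CPM in control). The part of these differences in the results was not tested. In bulk RNA, fewer cells with a transcript and less of it per cell cannot be told apart.

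Most chromosome 19 ZNF genes had few or no counted reads in SAS cells. No read was counted for 66 of the 246 in any library, another 88 had a median of 15.5 reads over all 6 libraries together, and 92 passed the count filter and were tested. In 71 of the 246, over 10% of the coding 50-base words occur in a transcript of another gene, and 25 of these were tested. How multiply mapping reads were handled was not stated, so a low count need not mean a low level of the transcript. Between 142 and 144 members had at least 1 read in a knockdown library and between 137 and 143 in a control library. All 246 together made up 918, 832 and 844 CPM in the knockdown libraries and 795, 763 and 752 CPM in the control libraries. The lowest knockdown total thus stood above the highest control total.

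Of 11 members listed for a known role, 4 had no reads, 2 had too few to test and 5 were tested. ZNF93, a KRAB repressor of young LINE-1 elements, ZNF331, an imprinted KRAB gene, ZNF382, a KRAB repressor described as a tumour suppressor, and ZNF83 had 0 reads in all 6 libraries. ZNF224, a KRAB repressor of the aldolase A gene, had 3, 6 and 1 reads in knockdowns 1 to 3 and 0 in each control, at or near the 3-read floor. ZNF649, a KRAB repressor in assays of serum response elements, had 0, 0 and 13 reads in knockdowns 1 to 3 and 3, 1 and 5 in controls 1 to 3. ZNF224 and ZNF649 did not pass the filter and were not tested.

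Detection differed between the clusters. Members were ordered by start, with a new cluster where neighbouring starts lay over 500 kb apart, which gave 20 clusters, 10 of them with at least 5 members and 232 members in all. The best detected of the large clusters lay at the end of the long arm (GRCh38 chromosome 19, 57191500 to 58481230, ZNF264 to ZNF446), with 31 of 43 members tested and 5 at 0 reads. Its most abundant member per length was ZNF324, at 4.25 CPM per kb. In the cluster nearest the centromere on the short arm (19668796 to 24129961, ZNF101 to ZNF254) 8 of 37 members were tested and 22 had 0 reads, and its most abundant member, ZNF101, stood at 0.375 CPM per kb. In the cluster from ZNF175 to ZNF331 (51571298 to 53580269) 8 of 39 were tested and 15 had 0 reads.

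Some other clusters had many genes with a few reads. From ZNF653 to ZNF791 (11483427 to 12640098) 4 of 25 members were tested and 18 had reads but too few to test. From ZNF565 to ZNF573 (36182060 to 37817300) 5 of 26 were tested, and from ZNF575 to ZNF180 (43525497 to 44500524) 5 of 23. The most abundant group was the cluster from ZNF628 to ZNF835 (55476332 to 56671783), where 10 of 16 members were tested, 12 lacked the KRAB letters, and the summed level was 460, 408 and 426 CPM in knockdowns 1 to 3 and 436, 398 and 394 CPM in controls 1 to 3. The groups overlapped.

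**Figure D1:**
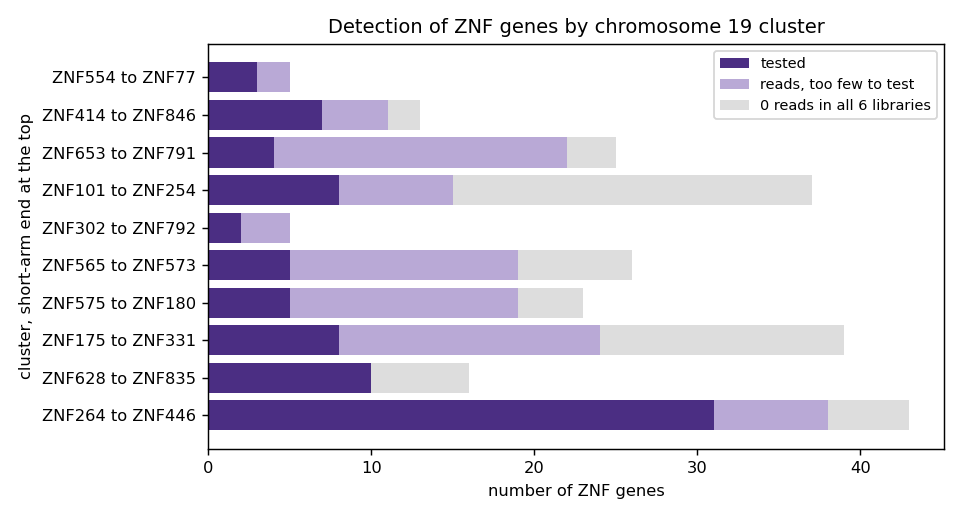
Number of ZNF genes (x axis) in each chromosome 19 cluster of at least 5 members (y axis, named by first and last gene), divided into genes tested, genes with reads too few to test, and genes with 0 reads in all 6 libraries. The cluster from ZNF264 to ZNF446 had 31 of 43 members tested, and that from ZNF101 to ZNF254 had 8 of 37.

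The levels followed the division by KRAB letters. Of the 169 genes with them 53 (31.4%) were tested, and of the 77 without them 39 (50.6%). The median level of the tested genes was 0.185 CPM per kb with the KRAB letters and 2.32 CPM per kb without. Of the 27 members at or above 1 CPM per kb, 21 lacked the letters. Genes without the KRAB letters held 82.5% of all member CPM in knockdown libraries and 81.9% in control libraries. Tested genes also had a higher coding GC content (median 46.2%, against 40.9% in those not tested) and more CpG dinucleotides in the 250 bases before the RefSeq start (median 17.5 in 82 genes with a matched promoter, against 14 in 134).

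The most abundant member per length was ZNF787, a zinc finger gene without KRAB letters, at 39.7 CPM per kb over all libraries. It stood at 146, 148 and 132 CPM in knockdowns 1 to 3 and 158, 152 and 143 CPM in controls 1 to 3. The groups overlapped, and the log2 fold change was -0.09 (95% interval -0.31 to 0.13, adjusted p = 0.643). ZNF581, at 27.9 CPM per kb the next in level, had 52.3, 43.1 and 52.2 CPM in knockdown and 44.8, 37.6 and 43.9 CPM in control, also overlapping (log2 fold change 0.22, edgeR adjusted p = 0.308). Of its exon bases 23.4% are shared with CCDC106 and ZNF580 on the same strand, so its value is uncertain. The order went on with ZNF358 (24.8 CPM per kb), ZNF524 (14.9) and ZNF428 (13.0).

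After IGF2BP1 knockdown 4 of the 92 tested genes rose and 0 fell, with an edgeR quasi-likelihood test and Benjamini-Hochberg adjustment over all 14649 tested genes at a threshold of 0.05. The share called was 4.35% for the members, against 6.27% higher and 6.66% lower among all tested genes, so the members' share did not stand above the background. The genes that rose were ZNF358, ZNF865, ZNF414 and ZNF428. All 4 lacked the KRAB letters and had a coding GC content between 64.9% and 72.0%. At an unadjusted p under 0.05 there were 18 members (19.6%), against 25.7% of all tested genes. Groups did not overlap for 12 members higher and 4 lower after knockdown, against 15.5% and 15.1% of all tested genes. Under other settings the share of all tested genes called higher and lower was 6.02% and 7.13% with RLE scaling, 4.11% and 4.74% without a count filter, and 7.90% and 8.69% with the replicate number as a block.

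ZNF358 (ENSG00000198816; chromosome 19, 7515292 to 7521026, plus strand) encodes a finger protein with no KRAB letters and none of the linker letters. It stood at 71.1, 56.2 and 79.7 CPM in knockdowns 1 to 3 and 38.7, 29.5 and 35.2 CPM in controls 1 to 3. Every knockdown library lay above every control library. Its mean was 69.0 ± 11.9 CPM after knockdown and 34.5 ± 4.66 CPM in control (SD, n = 3 each), with a log2 fold change of 1.00 (SE 0.15, edgeR adjusted p = 2.23e-04).

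Annotated genes overlap ZNF358. The antisense gene AC008878.4 (ENSG00000269371) is on the opposite strand and shares 14.2% of the exon bases of ZNF358. It held 66, 64 and 150 reads in knockdowns 1 to 3 and 45, 21 and 36 in controls 1 to 3 (log2 fold change 1.52, adjusted p = 0.0136), so it moved in the same direction as ZNF358 at a much lower level. The strand setting of the counting is not given in the sources used here, so the value of ZNF358 is uncertain to that extent. On the same strand AC008878.1 shares 20.2% of the exon bases, with the same coding words, and had 0 reads in all libraries.

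ZNF865 (ENSG00000261221; 55605405 to 55617269, plus strand) encodes a protein of many fingers without KRAB letters. It stood at 49.6, 45.7 and 49.4 CPM in knockdowns 1 to 3 and 34.3, 32.2 and 27.7 CPM in controls 1 to 3. The groups did not overlap. The mean was 48.2 ± 2.20 CPM after knockdown and 31.4 ± 3.35 CPM in control (SD, n = 3 each), with a log2 fold change of 0.62 (SE 0.13, edgeR adjusted p = 0.00425). No other annotated exon overlaps it, and none of its coding 50-base words occurs in a transcript of another gene.

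ZNF414 (ENSG00000133250; 8509678 to 8514164, minus strand) stood at 29.2, 19.997 and 26.5 CPM in knockdowns 1 to 3 and 15.4, 15.2 and 13.7 CPM in controls 1 to 3. Knockdown 2 was the lowest of its group and still above each control. The mean was 25.2 ± 4.73 CPM after knockdown and 14.8 ± 0.924 CPM in control (SD, n = 3 each), with a log2 fold change of 0.77 (SE 0.17, edgeR adjusted p = 0.00631). It too has no overlapping exon and no shared coding word.

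ZNF428 (ENSG00000131116; 43607219 to 43619874, minus strand), a short gene product with 564 coding bases and no linker letters, stood at 25.3, 24.0 and 23.6 CPM in knockdowns 1 to 3 and 15.4, 17.4 and 15.3 CPM in controls 1 to 3. The groups did not overlap. Its log2 fold change was 0.60 (SE 0.15, edgeR adjusted p = 0.0139), and the call was lost without control 1 (0.54, adjusted p = 0.0655) and without control 3 (0.56, adjusted p = 0.0582). SRRM5 on the opposite strand shares 27.6% of its exon bases and held 16, 27 and 10 reads in knockdowns 1 to 3 and 8, 10 and 8 in controls 1 to 3, far fewer than the 461, 549 and 614 reads of ZNF428 in knockdown and 352, 403 and 398 in control.

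The 4 genes, chosen by their calls, together summed to 167 ± 18.1 CPM after knockdown and 96.7 ± 6.35 CPM in control. The 73 other members without KRAB letters summed to 547 ± 40.1 CPM after knockdown and 534 ± 23.9 CPM in control, and the 169 with them to 151 ± 17.99 CPM after knockdown and 140 ± 9.91 CPM in control (SD, n = 3 each). Both of these differences were smaller than the SD of the knockdown libraries.

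**Figure D2:**
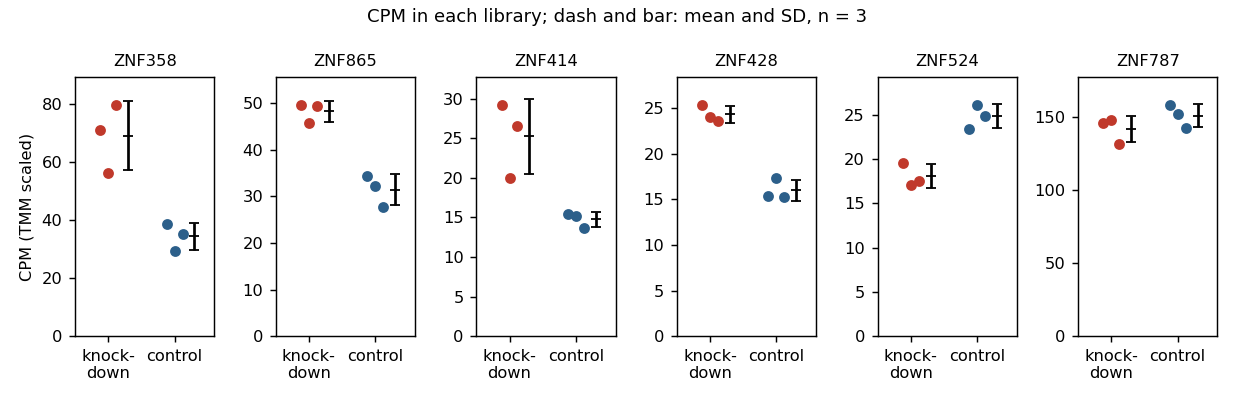
TMM-scaled CPM (y axis, from 0) of 6 abundant ZNF genes in each of the 3 knockdown (red) and 3 control (blue) libraries, with the mean and SD beside them. ZNF358, ZNF865, ZNF414 and ZNF428 lie higher in each knockdown library, ZNF524 lies lower, and ZNF787 overlaps.

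ZNF524 came nearest to a fall. It had 19.6, 17.0 and 17.5 CPM in knockdowns 1 to 3 and 23.4, 26.1 and 24.9 CPM in controls 1 to 3, with no overlap between groups. The log2 fold change of -0.46 (SE 0.15) had an edgeR adjusted p of 0.0535, just short of a call, and DESeq2 gave 0.0204. With DESeq2 the members called lower were thus 1, and those called higher 4, against 8.27% and 6.62% of all genes tested by it. The opposite-strand gene FIZ1, which shares 14.1% of the exon bases of ZNF524, rose in the same libraries (log2 fold change 0.64, adjusted p = 0.00815). ZNF524 lies directly beside ZNF865, so these neighbours had log2 fold changes of opposite sign.

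Of the nearest tested neighbours of the genes that rose, AC008878.4, inside the span of ZNF358, rose with that gene, as given above. No other was called higher. HNRNPM, the nearest tested gene on the left of ZNF414, encodes a splicing factor and fell (-1.20, adjusted p = 1.04e-06). CADM4, to the right of ZNF428, encodes a cell adhesion molecule and fell (-0.66, adjusted p = 0.0454). ZNF576 to the left of ZNF428 had -0.22 (adjusted p = 0.506), PEX11G to the left of ZNF358 had -0.10 (0.862), ZNF784 to the right of ZNF865 had -0.16 (0.714), and ZNF317 to the right of ZNF414 had -0.0030 (0.996). ZNF317 starts at 9140380, far from the end of ZNF414 at 8514164.

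The promoters of ZNF358 and ZNF414 are shown because both genes rose and their 250 bases before the RefSeq start hold no base of their own annotated transcripts. The sequences are RefSeq's on GRCh38.p14, in the direction of the gene, with GGGCGG, the core bound by SP1, in capitals on either strand.

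ZNF358 (chr19:7515853-7516102, plus strand): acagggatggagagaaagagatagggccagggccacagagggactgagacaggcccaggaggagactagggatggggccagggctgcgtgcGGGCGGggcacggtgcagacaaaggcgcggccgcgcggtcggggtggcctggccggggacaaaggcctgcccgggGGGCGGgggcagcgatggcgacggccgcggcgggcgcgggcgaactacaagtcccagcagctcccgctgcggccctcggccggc

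ZNF414 (chr19:8514168-8514417, minus strand): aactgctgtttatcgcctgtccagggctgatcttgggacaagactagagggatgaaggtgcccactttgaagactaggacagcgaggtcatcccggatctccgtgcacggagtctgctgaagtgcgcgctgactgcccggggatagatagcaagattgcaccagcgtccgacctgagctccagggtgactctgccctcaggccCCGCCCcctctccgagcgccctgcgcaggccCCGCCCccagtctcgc

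Both windows hold GGGCGG or its complement and none of the other searched motifs. That of ZNF358 lies inside the span GENCODE gives the gene, before the RefSeq start and outside its exons. The window of ZNF358 carries 26 CpG dinucleotides and that of ZNF414 carries 16. Among the 216 members with a matched promoter 64.8% hold GGGCGG, against 56.7% of protein-coding genes. The ETS core CCGGAAG was found in 31.9% of members and 11.97% of protein-coding genes. The E-box CACGTG was found in 3.70% of members and 7.85% of protein-coding genes, and the AP-1 site TGACTCA in 2.31% and 3.17%. All 4 motifs were searched on both strands in windows of the same length, and GGGCGG and CCGGAAG can overlap, as CCGGAAG read on its other strand can run into GGGCGG. A match describes the letters and is no evidence of binding.

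None of the 53 tested genes with KRAB letters was called in either direction by edgeR as described above, although ZNF480 and ZNF548, which hold the letters, were called higher without a count filter (adjusted p = 0.0387 and 0.0349). By edgeR 12.9% of all tested genes were called in either direction. Of the 53, 8 (15.1%) had an unadjusted p under 0.05, against 25.7% of all tested genes. Without the letters 4 of 39 (10.3%) rose, against 6.27% of all tested genes. Of the same 39, 10 (25.6%) had an unadjusted p under 0.05, close to the share over all tested genes. The difference between genes with and without the letters was not tested, and they differ in level. The median half-width of the 95% interval of a log2 fold change was 1.07 with the KRAB letters and 0.48 without. A change by 1 on the log2 scale was thus mostly not detectable in these libraries for a typical KRAB gene. In the group with 6 or more linkers the median log2 fold change was 0.31 with 20 of 28 above 0, and 0 were called. With 1 to 5 linkers it was -0.01 with 16 of 35 above 0, and 1 was called. With 0 linkers it was 0.08 with 17 of 29 above 0, and 3 were called. Among all tested genes 7801 of 14649 lay above 0. The median half-width of the 95% interval was 1.26 with 6 or more linkers, and no difference between the linker groups was tested.

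Some KRAB genes had large estimated changes that did not pass the adjustment; those named here, apart from the genes with a fixed role, were picked after their values were seen, for an unadjusted p under 0.05. ZNF91 (ENSG00000167232; 23304991 to 23395560, minus strand) stood at 1.21, 1.36 and 1.27 CPM in knockdowns 1 to 3 and 0.482, 0.646 and 0.576 CPM in controls 1 to 3. The groups did not overlap, but the counts were low, at 22, 31 and 33 reads after knockdown and 11, 15 and 15 in control. Its log2 fold change was 1.16 (95% interval 0.10 to 2.24, adjusted p = 0.151).

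ZNF600 lay on the other side, with 3, 2 and 0 reads in knockdowns 1 to 3 and 12, 15 and 13 in controls 1 to 3. Its log2 fold change of -2.76 (95% interval -4.94 to -0.76) had an edgeR adjusted p of 0.0694. Of its coding 50-base words 23.8% occur in other genes, most of them in ZNF611, so its value is uncertain. ZNF226, a KRAB gene of the long arm, had 2.58, 2.93 and 4.26 CPM in knockdown and 4.86, 7.28 and 3.76 CPM in control, with overlapping groups (log2 fold change -0.69, adjusted p = 0.171).

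ZNF749 stood at 6.38, 6.74 and 6.76 CPM in knockdowns 1 to 3 and 4.21, 4.48 and 4.60 CPM in controls 1 to 3. The groups stood clearly apart, and the log2 fold change was 0.58 (95% interval 0.08 to 1.08, edgeR adjusted p = 0.122). AC003002.2 on the same strand shares 11.8% of the exon bases of ZNF749, so its value is uncertain. ZNF480 had 4.51, 7.83 and 6.14 CPM in knockdown and 2.23, 5.34 and 2.46 CPM in control, with overlap at control 2 (log2 fold change 0.89, adjusted p = 0.103). ZNF548 had 0.605, 1.40 and 1.69 CPM in knockdown and 0.131, 0.689 and 0.115 CPM in control, again with control 2 inside the knockdown range (log2 fold change 1.99, adjusted p = 0.0827). Without control 2 ZNF480 and ZNF548 were called higher, with edgeR adjusted p-values of 0.0216 and 0.0208. For ZNF548 17.9% of the coding 50-base words occur in other genes, so its value is uncertain.

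ZNF587B stood at 2.42, 5.25 and 2.27 CPM in knockdowns 1 to 3 and 1.53, 1.89 and 1.34 CPM in controls 1 to 3, with knockdown 2 far above the rest (log2 fold change 1.06, adjusted p = 0.0866); without knockdown 2 the log2 fold change was 0.53 (adjusted p = 0.465). Of its coding 50-base words 30.8% occur in other genes, so its value is uncertain. ZNF114 had 3.24, 5.16 and 3.95 CPM in knockdown and 1.97, 2.07 and 2.84 CPM in control, without overlap (log2 fold change 0.84, adjusted p = 0.0916).

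The remaining genes of this kind lacked the KRAB letters, which does not show that they lack the domain. ZNF304, which encodes a transcriptional repressor, had 0.495, 1.66 and 0.806 CPM in knockdown and 0.263, 0.474 and 0.307 CPM in control (log2 fold change 1.501, adjusted p = 0.156), just without overlap, and 0.88 without knockdown 2. ZNF837 had 6.49, 5.601 and 5.605 CPM in knockdown and 3.16, 4.996 and 2.686 CPM in control (log2 fold change 0.71, adjusted p = 0.119), without overlap. ZNF653, a corepressor of nuclear receptors, had 12.2, 11.3 and 10.9 CPM in knockdown and 6.75, 7.58 and 10.5 CPM in control (0.47, adjusted p = 0.176); 23.5% of its coding 50-base words are shared with AC008481.3. ZNF296 had 17.5, 11.4 and 13.5 CPM in knockdown and 18.6, 19.5 and 17.5 CPM in control (-0.39, adjusted p = 0.188), with knockdown 1 inside the control range.

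Genes with a described function and enough reads were not called. ZNF274, which guides SETDB1 to the ends of other zinc finger genes, had 2.09, 3.54 and 2.34 CPM in knockdowns 1 to 3 and 2.32, 2.11 and 2.11 CPM in controls 1 to 3 (log2 fold change 0.29, 95% interval -0.43 to 1.01), and its sign turned without knockdown 2 (-0.0019). ZNF473, which acts with the U7 particle in histone pre-mRNA processing, had 1.70, 1.71 and 1.46 CPM in knockdown and 0.701, 1.81 and 1.23 CPM in control (0.38, interval -0.55 to 1.31; 0.07 without control 1). ZNF675, known as an inhibitor of TRAF6 signalling, had 0.770, 0.700 and 0 CPM in knockdown and 0.351, 0.517 and 1.34 CPM in control (-0.63, interval -2.55 to 1.27), and its sign turned without control 3 (0.13). ZNF146 had 1.26, 2.36 and 0.883 CPM in knockdown and 0.482, 0.258 and 1.07 CPM in control (1.29, interval 0.06 to 2.54, adjusted p = 0.173), a value that was 0.77 without knockdown 2 and 2.00 without control 3. These intervals were wide, and all but that of ZNF146 included 0.

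**Figure D3:**
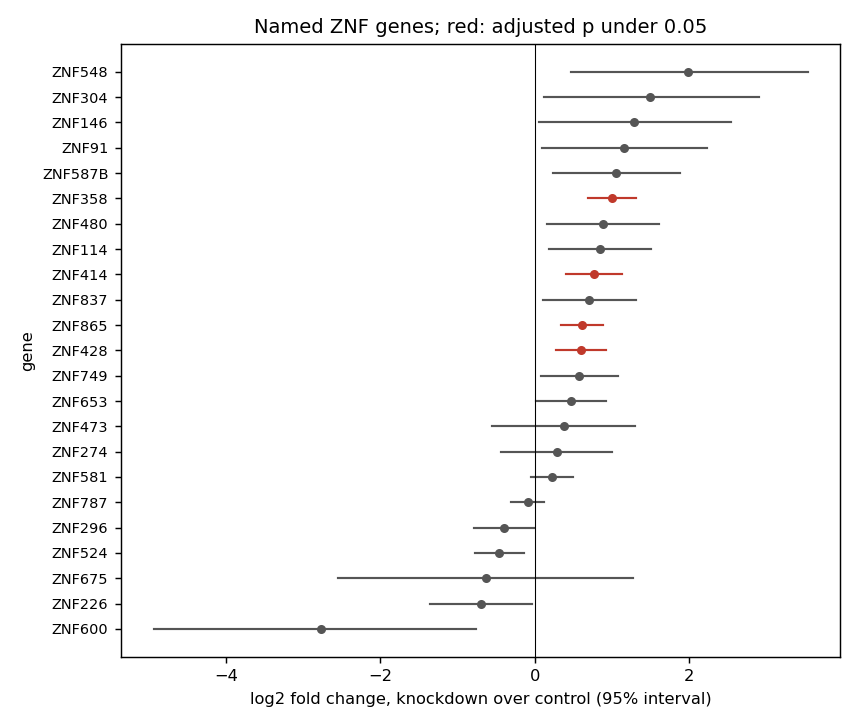
Log2 fold change, knockdown over control (x axis), with its 95% interval for the 23 named ZNF genes that were tested (y axis), in red where the adjusted p was under 0.05. The intervals of the 4 genes that rose are among the narrow ones, while ZNF548 and ZNF600 have the outermost estimates and wide intervals.

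Over all 92 tested genes the median log2 fold change was 0.09, with 53 above 0, against 0.03 for all tested genes. The median depended on single libraries: without knockdown 2 it was -0.03, and without knockdown 3 it was 0.23. The median deviation of the members from their mean over libraries was 0.13, 0.27 and -0.04 on the log2 scale in knockdowns 1 to 3 and -0.08, -0.00 and -0.05 in controls 1 to 3. For the 46 tested members of lowest level it was 0.08, 0.54 and -0.13 in knockdowns 1 to 3 and -0.10, 0.16 and 0.01 in controls 1 to 3. For all tested genes at those levels it was 0.10, 0.26 and 0.11 in knockdowns 1 to 3 and -0.12, 0.01 and -0.01 in controls 1 to 3. Of the 46 members 31 had their highest knockdown value in knockdown 2, a count not made for the other genes at those levels. Reads on RNA classes mostly without poly(A) tails made up 0.134%, 0.0733% and 0.0220% of knockdowns 1 to 3 and 0.0223%, 0.0351% and 0.0159% of controls 1 to 3; their part in the result was not tested.

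Other chromosome 19 protein-coding genes were called more often over their whole range of level, with 84 of 740 higher (11.4%) and 65 lower (8.78%). They are mostly more abundant, so they were set beside the ZNF genes within the quartiles of the ZNF genes' mean log2 CPM. In the highest quartile, from 7.49 to 146 CPM, 4 of 23 ZNF genes (17.4%) rose and 0 fell, against 52 of 358 other genes (14.5%) that rose and 33 (9.22%) that fell; of all tested genes at that level 8.82% rose and 11.2% fell. In the 3 lower quartiles 0 of 69 ZNF genes were called, while among the other genes 3 of 27, 3 of 64 and 10 of 108 rose from the lowest to the third quartile, and 5 of the 108 fell. Of all tested genes 2.44%, 3.04% and 5.07% rose and 0.396%, 1.26% and 2.39% fell in those quartiles. The difference of the ZNF genes from these sets was not tested.

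The median log2 fold change of the ZNF genes was -0.05, 0.23, 0.11 and 0.12 from the lowest to the highest quartile. For the other chromosome 19 genes it was 0.73, 0.38, 0.13 and 0.02, and for all tested genes 0.19, 0.19, 0.08 and -0.02. The average of the quartile medians was 0.10 for the ZNF genes, against 0.32 for the other chromosome 19 genes and 0.11 for all tested genes. Only this average of the ZNF genes was thus close to the genome-wide value. Their median lay below the genome-wide median in the lowest quartile and above it in each higher quartile. The low-level chromosome 19 genes outside the family had the higher medians, from 27 and 64 genes. These are descriptions, and no test of the difference was made.

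**Figure D4:**
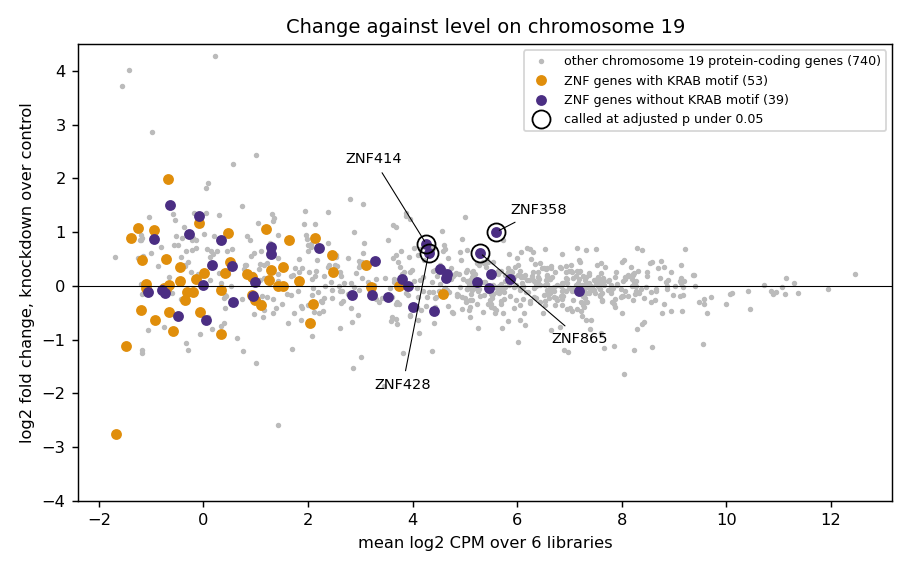
Log2 fold change, knockdown over control (y axis), against mean log2 CPM over 6 libraries (x axis) for tested chromosome 19 protein-coding genes, with ZNF genes coloured by the KRAB letters and called ZNF genes ringed. The ringed genes ZNF358, ZNF865, ZNF414 and ZNF428 sit among the abundant members without KRAB letters.

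**Figure D5:**
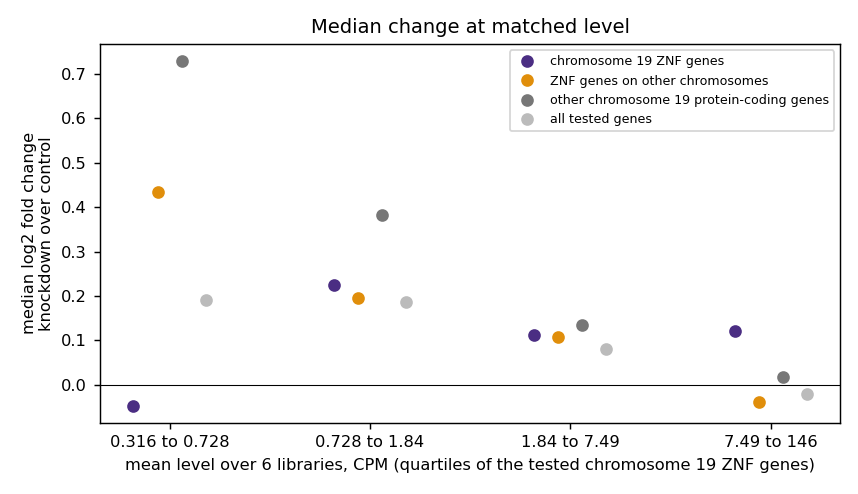
Median log2 fold change, knockdown over control (y axis), within the 4 quartiles of mean level of the tested chromosome 19 ZNF genes (x axis, CPM) for 4 sets of genes. The medians of the ZNF genes lie between -0.05 and 0.23, and those of other chromosome 19 protein-coding genes between 0.02 and 0.73.

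Coding GC content was read in the same way, since the genes that rose were GC-rich. Of the 24 tested members with at least 60% GC 4 rose (16.7%), against 68 of 545 other chromosome 19 genes (12.5%) and 377 of 3315 protein-coding genes of the genome (11.4%) in that range. Of the 35 tested members under 45% GC 0 were called, and among all tested protein-coding genes under 45% GC 1.64% were higher and 0.947% lower. Across the 92 tested members the log2 fold change had a Spearman's rho of -0.08 with coding GC and 0.11 with the number of linkers (Pearson's r 0.00 and 0.06), as a description across genes that share libraries.

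Of 262 protein-coding ZNF genes on other chromosomes 176 were tested, of which 9 rose (5.11%) and 5 fell (2.84%), with a median log2 fold change of 0.09; the difference from the chromosome 19 members was not tested. The largest of these changes were rises of ZNF483 (1.92), ZNF81 (1.24) and ZNF747 (1.06) and falls of ZNF488 (-0.69) and ZNF839 (-0.64). Of 19 chromosome 19 genes with other zinc finger symbols 5 were tested and 0 called by edgeR, with 2 at an unadjusted p under 0.05; ZFP36 among them is an RNA-binding protein of another finger type.

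The machinery through which KRAB proteins act was mostly not called. TRIM28, itself on chromosome 19, stood at 1064 ± 118 CPM after knockdown and 1169 ± 90.6 CPM in control (SD, n = 3 each), with a log2 fold change of -0.14 (95% interval -0.37 to 0.09, adjusted p = 0.485). For SETDB1 the log2 fold change was 0.21 (adjusted p = 0.456). Of 20 tested genes of the TRIM28 corepressor and heterochromatin list 1 rose (5%) and 3 fell (15%), against 6.27% and 6.66% of all tested genes, with a median of 0.06; at 20 genes these counts are too small to set the list apart.

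The genes that fell were UHRF1, which recognises hemimethylated DNA and recruits DNMT1, at 87.0 ± 8.78 CPM after knockdown and 148 ± 16.1 CPM in control (SD, n = 3 each; -0.77, adjusted p = 3.29e-04), the maintenance DNA methyltransferase gene DNMT1 (-0.35, adjusted p = 0.0424), and CHD4, a remodeller of the NuRD complex (-0.67, adjusted p = 0.0116). CBX1, which encodes the heterochromatin protein HP1 beta, rose (0.53, adjusted p = 0.0429).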

How the data were processed

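Poly(A) RNA from 6 SAS libraries was measured as raw read counts per gene, deposited by the authors as 1 column per library. The submitters' processing notes list featureCounts 2.0.0, SAMtools 1.10, HISAT2 2.1.0 and cutadapt 2.8 with the genome build hg38. How strand and multiply mapping reads were handled, and with which annotation release, was not stated there; hence genes with overlapping exons or shared sequence are uncertain. A further deposited column of another kind, the authors' gene length (bases), was used for CPM per kb. No per-sample column was left unused (0).

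Genes passing filterByExpr (minimum count 10, minimum total 15) went into edgeR 4.0.16 under R 4.3.3 (TMM scaling, robust glmQLFit, glmQLFTest, 2 groups of 3, no covariate), with Benjamini-Hochberg adjustment over all tested genes. Each SE was derived from the log2 fold change and the quasi-F statistic (change over root F). Level quartiles used mean log2 CPM with a prior count of 2. The fit was tested on simulated data. Replicates of a group differed beyond sampling noise (chi-square per degree of freedom from 14.6 to 36.2). Alternatives were RLE scaling, no scaling factor, other count filters, DESeq2 1.42.0, limma-voom (limma 3.58.1), a block for replicate number, and each library omitted in turn.

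Genes were named by rule: called members (up to 10 per direction), the 5 with the most CPM per kb, 11 with a known role, and called genes of the other lists; members with an unadjusted p under 0.05 were added after their values were seen. The members and lists were chosen with earlier results of these data known. Coordinates and coding sequences come from GENCODE release 29 (GRCh38; 246 of 246 members matched) and promoters from RefSeq (216 matched). Protein sequences were not used here. The leukocyte marker list is not reported here.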

Additional observations from a re-analysis of the deposited data

How the results depend on the processing

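The 4 rises kept their direction in each alternative run, and ZNF358, ZNF865 and ZNF414 kept their call in each. The number of members called higher was 4 with RLE scaling, no scaling factor and limma-voom (92 tested in each). It was 4 of 61 with the stricter filter and 4 of 85 with DESeq2. Without a count filter it was 6 of 180 (adding ZNF480 and ZNF548). With a library left out it was from 3 to 6, with 98 to 105 tested. Among all genes, 2087 of 14649 were called in either direction without a scaling factor and 1834 of 14649 with limma-voom. The stricter filter gave 2059 of 12427, and a library left out gave from 1231 of 15261 to 1948 of 15256. The number of members called lower was 0, and 1 (ZNF524) with RLE scaling, with at least 1 CPM in 3 libraries and with DESeq2. It lay between 0 and 1 with a library left out. The fall of IGF2BP1 was called in each alternative. The median log2 fold change of the members ranged from -0.0317 (without knockdown 2) to 0.23 (without knockdown 3) with a library left out. The level-matched median of the other chromosome 19 genes was 0.32, 0.40 without a scaling factor and from 0.23 to 0.32 with a library left out; it could not be computed with the stricter filter, which empties the lowest quartile. With a library left out the log2 fold change of ZNF675 ranged from -1.10 to 0.13 (without control 3) and that of ZNF274 from -0.0019 (without knockdown 2) to 0.43; the cause was not tested.

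Same-numbered knockdown and control libraries had correlations of their deviations of 0.179, 0.0863 and -0.0730 for numbers 1 to 3, so the numbers were not taken as pairs. With the replicate number as a block 6 members were higher (adding ZNF480 and ZNF548, adjusted p = 0.0213 and 0.0476) and 1 lower (ZNF524), against 7.90% and 8.69% of all tested genes. Intervals were wider for members of lower level: the median half-width of the 95% interval was 1.57 on the log2 scale in the lowest level quartile and 0.36 in the highest.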
